A study of Mus musculus with 6 samples.

Results

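The 8 genes described here are Trh, Otx2, Spink1, Cd24a, Amot, Mtm1, Emb and Car2. They were chosen from the deposited values themselves, as genes with a probe set at least 2-fold brighter in the postnatal day 1 (PN1) testis of the consomic mouse strain 129.MOLF-Chr19 than in that of 129/Sv. They are 8 of 18193 genes that the array measured through a probe set with a single gene symbol. They are only a part of those past 2-fold: 48 probe sets passed, and 26 genes when each was read by its brightest probe set. Together they have 16 probe sets, each a group of short probes read as one value, and every probe set is described apart. Because the PN1 strain comparison chose the genes, its values are a description and were not tested.

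The study compared 2 inbred strains. 129/Sv is the control, and 129.MOLF-Chr19 carries chromosome 19 of the MOLF strain on the 129 background and develops testicular germ cell tumors often. RNA was taken from the testis (genital ridge) of male embryos at E13.5 (embryonic age in days), from the PN1 testis, and from whole male E13.5 embryos, and was hybridised to Affymetrix mouse genome arrays. Each of the 6 groups was 1 array of 1 pool: 20 pairs of testes per strain at E13.5, 12 pairs of 129/Sv and 25 pairs of 129.MOLF-Chr19 at PN1, and 3 embryos per strain. The submitters chose these ages because germ cells turn into embryonal carcinoma cells, the stem cells of these tumors, at that time, and reported both cell types in the newborn 129.MOLF-Chr19 testis. With 1 array per group, no difference between strains within a tissue has a replicate check.

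The 8 genes share no single pathway. Trh encodes the precursor of thyrotropin-releasing hormone, a short peptide cut from a longer protein, and Spink1 a secreted inhibitor of trypsin. Otx2 is a homeobox transcription factor of the early epiblast, the anterior visceral endoderm (an extraembryonic layer that patterns the head) and the forebrain. Cd24a and Emb encode glycoproteins of the cell surface. Amot encodes a scaffold at cell junctions that binds the transcriptional co-activator YAP, Mtm1 a phosphatase of membrane phosphoinositides, and Car2 a carbonic anhydrase of the cytosol. In RefSeq (GRCm38.p6) Mtm1 and Amot lie on chromosome X, Car2 on 3, Trh on 6, Cd24a on 10, Emb on 13, Otx2 on 14 and Spink1 on 18. None of them lies on chromosome 19, the chromosome exchanged in the consomic strain.

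RefSeq promoter windows were held for 5 of the 8 genes. A window of Trh, which had the largest PN1 difference among the 8, and 1 of Otx2, the transcription factor of the set, are shown. They were chosen after the search for motifs. Each sequence is the 250 bases before an annotated start site, 5′ to 3′ on the strand of the gene. Capitals mark matches to the motifs that were searched on both strands.
Trh, chr6:92244651-92244900, minus strand: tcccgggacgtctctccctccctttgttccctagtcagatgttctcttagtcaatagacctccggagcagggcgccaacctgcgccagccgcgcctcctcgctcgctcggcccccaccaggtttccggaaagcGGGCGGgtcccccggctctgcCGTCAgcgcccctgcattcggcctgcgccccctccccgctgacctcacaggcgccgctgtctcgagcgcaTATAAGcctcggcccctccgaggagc
Otx2, chr14:48665110-48665359, minus strand, 1 of 4 annotated starts: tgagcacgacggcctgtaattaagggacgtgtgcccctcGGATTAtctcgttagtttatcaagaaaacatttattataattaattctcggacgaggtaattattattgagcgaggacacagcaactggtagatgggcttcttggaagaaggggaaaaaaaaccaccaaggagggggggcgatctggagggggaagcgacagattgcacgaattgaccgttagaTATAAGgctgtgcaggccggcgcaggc
Both windows hold TATAAG, a variant of the core promoter element that binds the TATA-binding protein, with its first letter 26 bases before the start of Trh and 27 bases before that of Otx2. This run was found in 6.65% of the 32851 mouse promoter windows searched over the same 250 bases. The Trh window also holds GGGCGG, which 32.7% of all windows hold, and the reverse complement of TGACG, held by 17.8%. In the Otx2 window lies GGATTA, a core that Otx proteins are known to bind, 211 bases before the start, and 6.25% of all windows hold it. TATAAA (12.4% of windows), which shares its first 5 letters with the run in both windows, and CCAAT (33.9%) were in other windows of the 5 genes, and the octamer ATTTGCAT (1.60%) was in none of the 10 windows of the 5 genes. A match is a description of the letters only.

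The arrays resembled each other in scale, with medians between 220.5 and 250.7 intensity units, and values were raised to the 25th percentile of their array (the floor, 107.4 to 125.4), log2 transformed and centred on the array median. An intensity of one probe set is not comparable with that of another. The control ratio of 3 prime to 5 prime Actb signal was 1.84 on the 129.MOLF-Chr19 PN1 array and 1.09 to 1.19 on the other 5, while that of Gapdh was 0.916 on this array and 0.895 to 0.966 on the others. The pool sizes at PN1 also differed. The part of the Actb ratio or the pool size in the results below was not tested. The labelled tissues carried their markers: Dazl, an RNA-binding protein of germ cells, read 5114 and 3506 in the E13.5 testes of 129/Sv and 129.MOLF-Chr19 and 108.6 and 97.1 in the embryos, under the floor. Amh, the Sertoli cell hormone, was at 518 and 567 in the E13.5 testes, and at 186 and 147 in the embryos.

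Of the 16 probe sets, 12 were at least 2-fold higher in the PN1 testis of 129.MOLF-Chr19, at least 1 in each of the 8 genes, where 0.202% of all 23805 probe sets compared were and 1.69% were at least 2-fold lower. The rule fixed that result. The 12 log2 differences (129.MOLF-Chr19 minus 129/Sv) ran from 1.10 to 3.06. Of the 4 other probe sets, the nearest to the threshold was that of Amot at 0.27, and the lowest of the 12 was that of Emb at 1.10. In a testis pool, more cells of one type and more RNA per cell cannot be told apart.

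**Figure D1:**
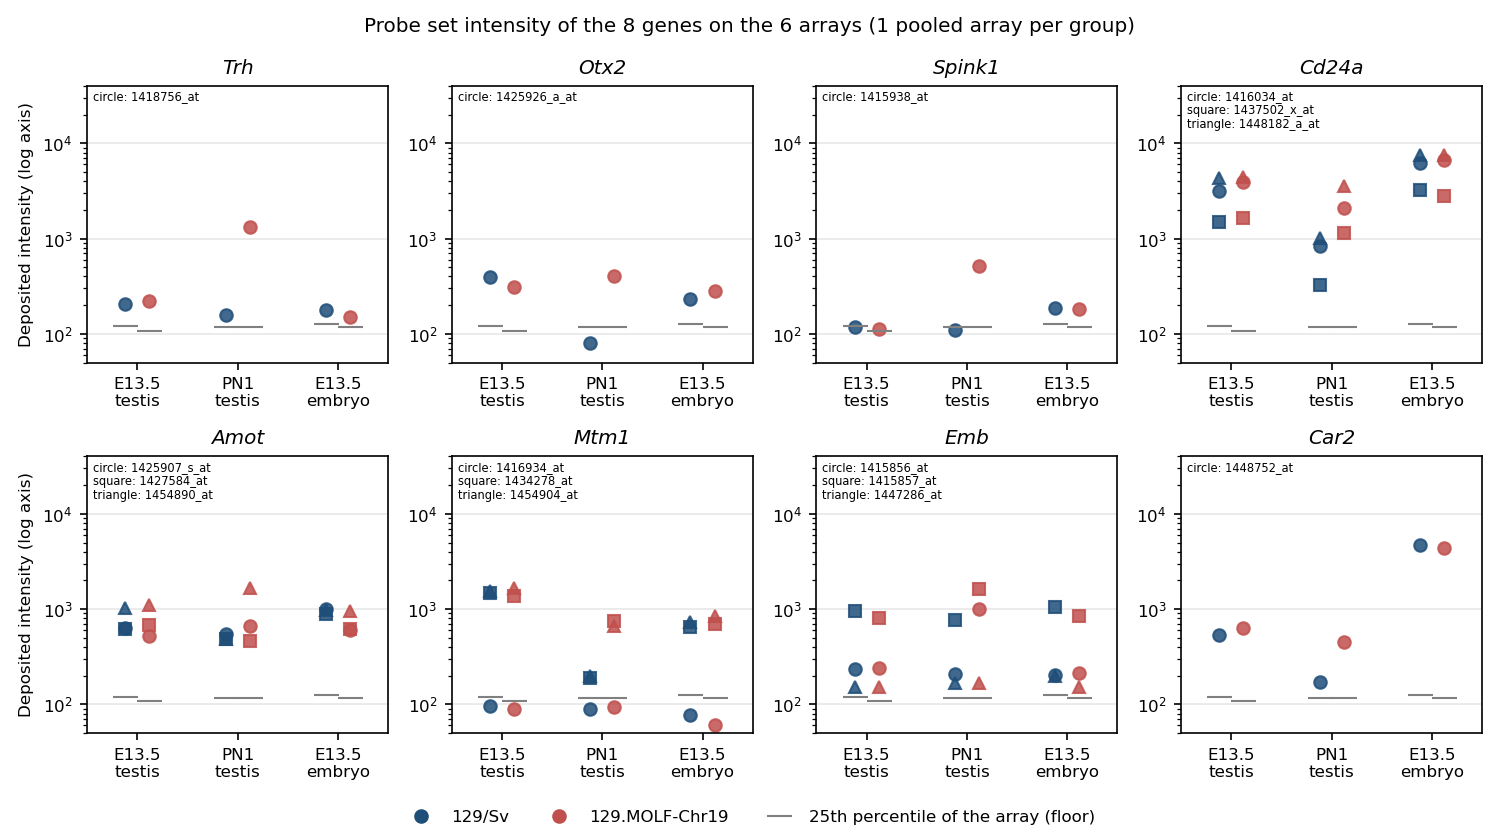
Deposited intensity (log axis) of the 16 probe sets of the 8 genes in 3 tissues; each point is 1 pooled array, blue 129/Sv and red 129.MOLF-Chr19, symbols tell probe sets of a gene apart, and grey dashes are the 25th percentile of the array. Trh reads 1310 on the 129.MOLF-Chr19 PN1 array and 149 to 219 elsewhere, and Cd24a and Car2 are brightest in the embryos.

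The first group is that of the secreted products. Trh (1418756_at) read 206 in the 129/Sv and 219 in the 129.MOLF-Chr19 E13.5 testis, 157 and 1310 in the PN1 testes, and 179 and 149 in the embryos. The PN1 testis of 129.MOLF-Chr19 was thus the 1 high array, 5.76-fold above the next, and the other 5 all lay below their array medians. Its PN1 log2 strain difference was 3.06, 8.33-fold. Spink1 (1415938_at) read 118 and 112 in the E13.5 testes, 108 and 510 in the PN1 testes, and 187 and 181 in the embryos. It was again high on the single 129.MOLF-Chr19 PN1 array, 2.91-fold above the next, and the 129/Sv testes of both ages were at the floor. The PN1 strain difference was therefore at least 4.34-fold (log2 2.12, and 1.52 with the floor at the 40th percentile). In both E13.5 tissues the strains differed little in either gene: Trh by 0.21 in the testis and −0.18 in the embryo, and Spink1 by 0.02 and 0.04. Both genes were below the array median on every E13.5 array, so small differences there do not show equal levels.

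Otx2 (1425926_a_at), the transcription factor of the set, behaved otherwise. It read 399 in the 129/Sv and 308 in the 129.MOLF-Chr19 E13.5 testis, 81.1 and 401 in the PN1 testes, and 235 and 280 in the embryos. The 1 low array was that of the 129/Sv PN1 testis, at the floor, and the 129.MOLF-Chr19 PN1 testis stood only 1.05-fold above the next array, the 129/Sv E13.5 testis. The PN1 difference, at least 3.41-fold (log2 1.77, and 1.17 with the floor at the 40th percentile), came with a 129/Sv level at least 3.24-fold lower at PN1 than at E13.5, and with a 129.MOLF-Chr19 level 1.26-fold higher at PN1 than at E13.5.

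Among the surface glycoproteins, Cd24a, a small protein held in the membrane by a lipid anchor, gave one pattern in all 3 of its probe sets. 1448182_a_at read 4339 and 4477 in the E13.5 testes of 129/Sv and 129.MOLF-Chr19, 1024 and 3569 in the PN1 testes, and 7535 and 7556 in the embryos. 1416034_at read 3137 and 3901, 834 and 2083, and 6190 and 6728 in the same order. 1437502_x_at, whose suffix marks probes that may also bind related transcripts, read 1499 and 1636, 326 and 1145, and 3199 and 2809. In each the embryos were highest, the E13.5 testes next, the 129.MOLF-Chr19 PN1 testis below them and the 129/Sv PN1 testis lowest. The PN1 log2 strain differences were 1.80, 1.32 and 1.81 in the order named, which are 3.48-fold, 2.49-fold and 3.51-fold.

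Emb encodes embigin, a partner of monocarboxylate transporters, and its probe sets agreed in part. 1415856_at read 233 and 239 in the E13.5 testes, 210 and 1014 in the PN1 testes, and 202 and 212 in the embryos. The 129.MOLF-Chr19 PN1 array was 4.10-fold above the next, and the PN1 strain difference was 4.82-fold (log2 2.27). 1415857_at, which the platform annotation ties to the same transcript accession, read 955 and 802, 762 and 1633, and 1046 and 854. It was also highest on that array, 1.71-fold above the next, with a PN1 difference of 2.14-fold (log2 1.10). The third, 1447286_at, lay between 152 and 199 on all 6 arrays, below every array median, and its PN1 log2 difference was −0.03.

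Amot passed 2-fold with 1 of 3 probe sets. 1454890_at read 1029 and 1101 in the E13.5 testes of 129/Sv and 129.MOLF-Chr19, 487 and 1672 in the PN1 testes, and 981 and 945 in the embryos. It was lowest in the 129/Sv PN1 testis and highest in the 129.MOLF-Chr19 PN1 testis, 3.43-fold apart (log2 1.78). 1425907_s_at read 550 and 663 in the PN1 testes, and 1427584_at 480 and 457, log2 differences of 0.27 and −0.07. Both lay above the median on all 6 arrays, and the PN1 value of Amot rests on 1 probe set.

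Mtm1 gave 2 probe sets of one pattern. 1434278_at read 1459 and 1366 in the E13.5 testes, 190 and 751 in the PN1 testes, and 653 and 690 in the embryos. 1454904_at read 1543 and 1654, 200 and 658, and 724 and 840. The E13.5 testes of both strains were highest and the 129/Sv PN1 testis lowest, and the 129.MOLF-Chr19 PN1 testis did not reach the E13.5 testis on either. The PN1 differences were 3.96-fold (log2 1.98) and 3.29-fold (log2 1.72). The third probe set, 1416934_at, was at the floor on all 6 arrays. Both other probe sets carry the same accession in the platform annotation and are not independent readings of the gene.

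Car2 (1448752_at), a carbonic anhydrase abundant in red blood cells, read 530 and 636 in the E13.5 testes, 173 and 453 in the PN1 testes, and 4722 and 4394 in the embryos. The embryos stood far above every testis, and the 129/Sv PN1 testis was lowest. The PN1 strain difference was 2.62-fold (log2 1.39). The 7 other erythroid markers measured summed to 1535 intensity units in the 129/Sv and 1699 in the 129.MOLF-Chr19 PN1 testis, and to 8735 and 8376 in the embryos. Of these, 3 were compared at PN1, with log2 differences from 0.10 to 0.28. A sum over a list adds probe sets whose intensities are not comparable, so the brightest weigh most, and no sum was tested.

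The strain difference was tested in the E13.5 arrays, which the choice of genes did not use. Across the E13.5 testis and embryo, limma called 0 of the 11 member probe sets bright enough for the fit (adjusted p 0.124 to 0.896, n = 2 arrays per strain), and 2 of the 11 had an unadjusted p under 0.05, as did 4528 of all 23624 probe sets. Over all probe sets fitted, 41 of 23624 (0.174%) were higher in 129.MOLF-Chr19 and 20 (0.0847%) lower. The member estimates ran from −0.39 to 0.32 on the log2 scale. Cd24a 1416034_at had the smallest limma adjusted p, 0.124, with a log2 estimate of 0.32 (SE 0.104). The lowest log2 estimate was that of Amot 1425907_s_at, −0.39 (SE 0.154). With 1 residual degree of freedom before moderation, a missed threshold does not show equal levels. The probe sets of Trh and Spink1, 2 of Emb and 1 of Mtm1 were below the array median on at least 3 of these 4 arrays and were not fitted.

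Within single tissues, none of the 16 probe sets reached 2-fold at E13.5 in either direction. In the E13.5 testis 0.101% of probe sets were at least 2-fold higher and 0.0676% lower, and in the embryo 0.0547% and 0.294%. The 12 probe sets that passed at PN1 lay between −0.25 and 0.43 in the E13.5 testis, median 0.19, against 0.07 for all probe sets compared. In the embryo they lay between −0.20 and 0.34, median 0.07, against 0.03 for all. The medians of the 12 include Trh and Spink1, and in the embryo Emb 1415856_at. These were below the array medians there, and such probe sets do not enter the medians for all. Before centring, the 129.MOLF-Chr19 array median was lower than that of 129/Sv, by a log2 shift of −0.12 in the E13.5 testis and −0.088 in the embryo. The values above are relative to these shifts, and the embryo shift is larger in size than the embryo median of 0.07.

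**Figure D2:**
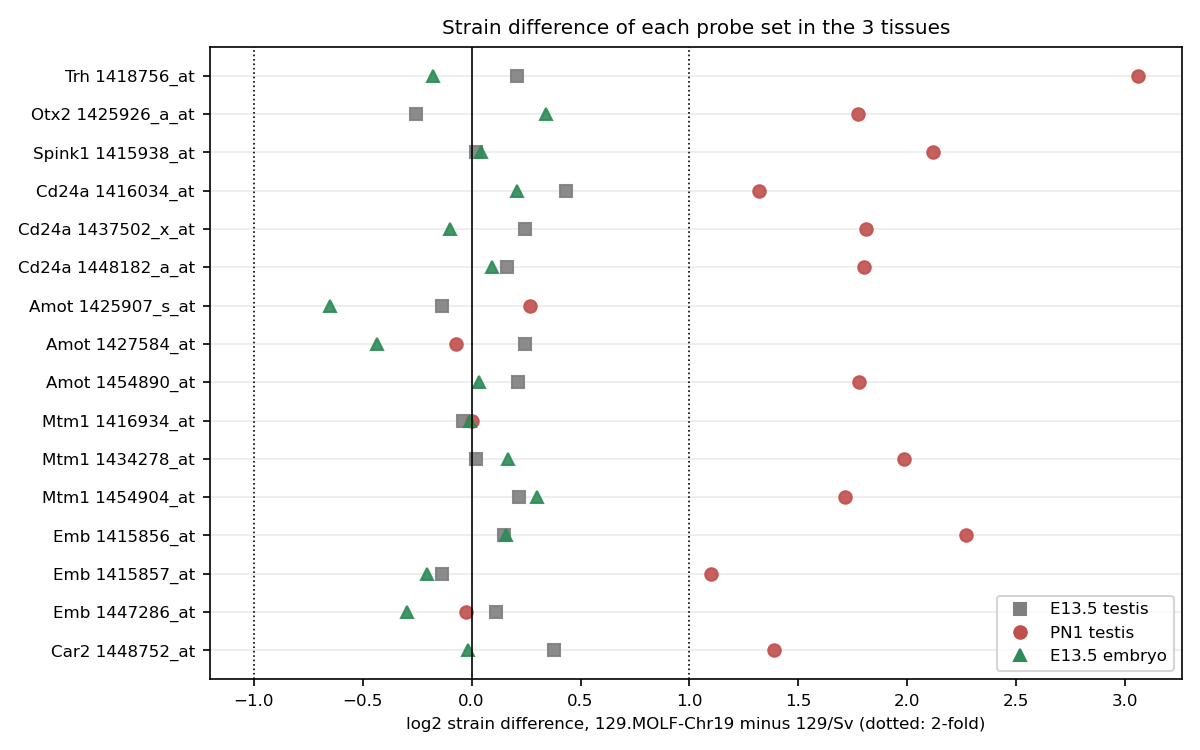
Log2 strain difference (129.MOLF-Chr19 minus 129/Sv, 1 array per strain) of each of the 16 probe sets in the E13.5 testis (grey squares), PN1 testis (red circles) and E13.5 embryo (green triangles); dotted lines mark 2-fold. The 12 red points at 1.10 to 3.06 are those by which the genes were chosen, and every E13.5 value lies inside 2-fold.

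Read by age, the genes fell into different patterns. In 129/Sv, 8 of the 12 probe sets were at least 2-fold lower in the PN1 than in the E13.5 testis, where 2.33% of 23934 probe sets compared were and 1.46% were at least 2-fold higher. These were Otx2, Amot 1454890_at, Car2, the 3 of Cd24a and the 2 of Mtm1. Mtm1 was 7.34-fold and 7.36-fold lower, and Cd24a 3.59-fold to 4.39-fold. In 129.MOLF-Chr19, 1 of the 12 was at least 2-fold lower at PN1, Mtm1 1454904_at at 2.61-fold, against 6.00% of 24522 probe sets. Trh, Spink1 and Emb 1415856_at were at least 2-fold higher at PN1 in 129.MOLF-Chr19, by 5.76-fold, 4.39-fold and 4.10-fold, where 1.34% of probe sets were. In 129/Sv the log2 level of those 3 at PN1 less that at E13.5 was −0.32, 0.04 and −0.08.

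At PN1 the 129.MOLF-Chr19 array thus stood above all 5 others in Trh, Spink1 and Emb 1415856_at, while in Cd24a, Mtm1 and Car2 the 129/Sv array stood below the other 5. Otx2, Amot 1454890_at and Emb 1415857_at showed both. These comparisons share arrays: the 129/Sv PN1 array enters both the strain and the age difference, so each is a description and neither bears on the other. Of the 12 probe sets, 6 were brightest on the 129.MOLF-Chr19 PN1 array, 4 on an embryo array and 2 on an E13.5 testis array. Over all 48 probe sets at least 2-fold higher in that testis, these 12 included, 34 were brightest there, 6 of them members. At least 2-fold lower at PN1 than at E13.5 in 129/Sv were 12 of the 48, 8 of them members.

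**Figure D3:**
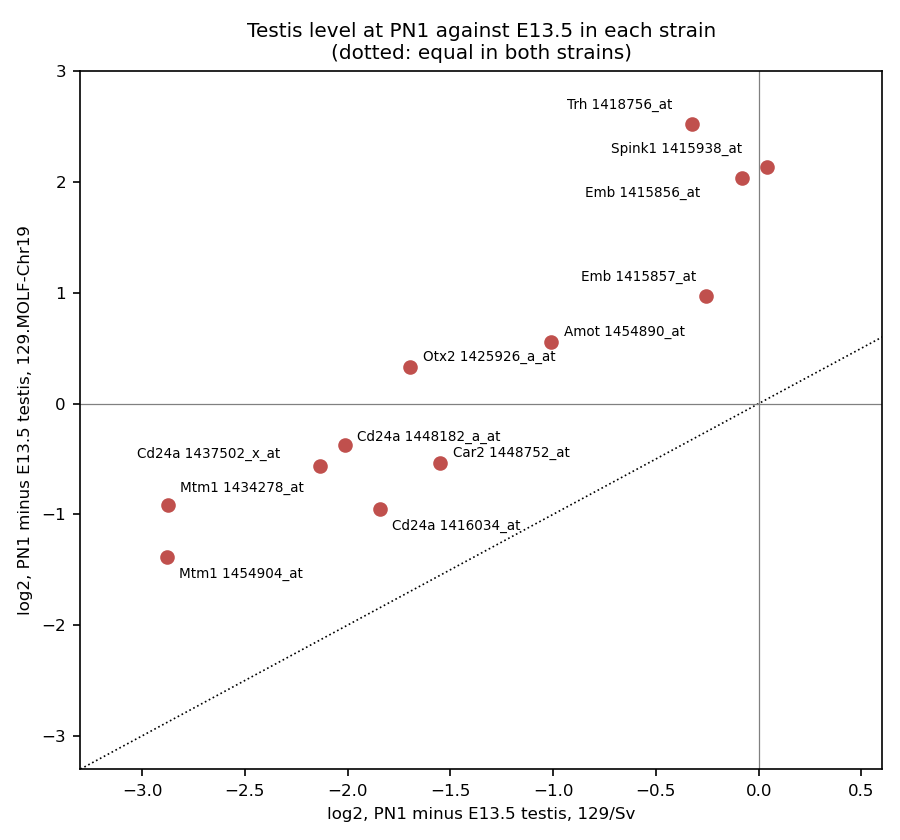
Log2 difference between the PN1 and the E13.5 testis in 129/Sv (horizontal) and in 129.MOLF-Chr19 (vertical) for the 12 probe sets at least 2-fold higher in the 129.MOLF-Chr19 PN1 testis; each point is a probe set, from 1 array per group, and the dotted line marks equal differences. Mtm1, Cd24a and Car2 lie to the lower left (lower at PN1 in both strains, less so in 129.MOLF-Chr19), and Trh, Spink1 and Emb 1415856_at at the upper right.

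The level in the E13.5 testis against the whole embryo was tested in the same 4 arrays, with strain as a block. Of the 11 fitted member probe sets, 3 were higher in the testis, where 22.7% of all 23624 were, and 4 were lower, where 7.44% were. Mtm1 was higher by 1.16 (log2, SE 0.147, limma adjusted p 2.1e-06, n = 2 arrays per tissue) and 1.12, in both strains. Otx2 was higher by 0.53 (SE 0.153, limma adjusted p 0.0101), by 0.83 in 129/Sv and 0.24 in 129.MOLF-Chr19. Car2 was 7.41-fold lower in the testis (log2 −2.89, SE 0.145, limma adjusted p 4.33e-13), and the 3 probe sets of Cd24a were 1.62-fold to 1.81-fold lower. The 3 of Amot and Emb 1415857_at did not pass, with log2 estimates from −0.36 to 0.23, although Amot 1425907_s_at, the lowest of them, passed under 4 other settings (limma adjusted p 0.0116 to 0.0485). The split over all probe sets moved with the scaling, from 5372 higher and 1758 lower to 4155 and 2544 on the values as deposited and 3854 and 3066 after quantile normalization. Fitted over all 6 arrays, whose residual also holds the PN1 strain difference that chose these genes, 0 members were higher and 1, Car2, lower (log2 −2.89). In that fit, leaving out the 129/Sv E13.5 testis array turned Otx2 to −0.12, and leaving out that of 129.MOLF-Chr19 ended the call of Car2 (limma adjusted p 0.0565).

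Partners and relatives of the 8 genes were read from lists, each gene by its brightest probe set. In the PN1 testis 0.204% of 12729 genes compared were at least 2-fold higher in 129.MOLF-Chr19 and 0.888% lower, with a median log2 difference of 0.03. For Trh, 7 genes of its processing and reception and of the thyroid axis it drives were compared and 0 passed 2-fold, with Pam, the enzyme that amidates the peptide, at −0.46, Cpe, a processing carboxypeptidase, at 0.25 and the receptor gene Trhr2 at 0.23. The receptor gene Trhr and the degrading enzyme gene Trhde were below the median on both PN1 arrays. For Emb, 1 of 4 genes of the basigin family and lactate transport passed: Slc16a1, a monocarboxylate transporter, read 359 in the 129/Sv and 724 in the 129.MOLF-Chr19 PN1 testis, 2.01-fold apart. Bsg, the best known such partner, differed by 0.09 and Nptn by −0.02.

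For Amot, 0 of 15 genes of the Hippo pathway were 2-fold higher and 1 was lower. That was its relative Amotl1, at 1048 in 129/Sv and 458 in 129.MOLF-Chr19 (log2 −1.20), opposite in sign to Amot 1454890_at. The list's median was −0.17. The lists for Mtm1, Car2, Cd24a and Spink1 held no other gene past 2-fold. The 14 relatives of Mtm1 and phosphoinositide kinases lay between −0.63 (Mtmr2) and 0.33 (Pik3r4), with a median of 0.10. The 8 other carbonic anhydrases compared lay between −0.29 (Car7) and 0.63 (Car4), with a median of 0.14. Of the 9 CD24 ligands and lipid anchor enzymes, Pigk was lowest at −0.52 and Pign highest at 0.34, and the median was −0.15. The 4 Kazal inhibitors and proteases lay between −0.37 (Spink8) and −0.06, with a median of −0.07. At E13.5 no list gene compared reached 2-fold, where in the testis 0.0559% of genes compared were higher and 0.0319% lower, and in the embryo 0.0552% and 0.284%. The pluripotency marker L1td1 came nearest, just under the threshold, at a log2 difference of 0.996 in the testis. Over all 18 lists, 170 genes other than the 8 entered the E13.5 strain fit, where limma called 0 and 22 had an unadjusted p under 0.05, against 4528 of 23624 probe sets.

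Markers of other cell types were read beside the 8 genes at PN1. Of 16 pluripotency and embryonal carcinoma markers compared, 3 were at least 2-fold higher in 129.MOLF-Chr19, 0 lower, and the median was −0.01. The transcription factor gene Pou5f1 read 177 in 129/Sv and 454 in 129.MOLF-Chr19 (log2 1.36), the DNA methyltransferase gene Dnmt3b 373 and 848 (1.18), and the glucose transporter gene Slc2a3 487 and 1887 (1.95). Nanog was under the floor in both strains, at 38.8 and 70.7, and Sox2 at 82.3 and 158 was below both array medians. The 26 markers measured summed to 9298 in 129/Sv and 12385 in 129.MOLF-Chr19 at PN1, to 16614 and 16498 in the E13.5 testes and to 10100 and 8988 in the embryos. The PN1 sums do not show how many markers rose, and 8 of the 16 compared were above 0. They hold the 487 and 1887 of Slc2a3, and also the 373 and 848 of Dnmt3b and the 177 and 454 of Pou5f1.

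Epithelial markers gave 4 of 13 at least 2-fold higher and 0 lower, with a median of 0.24. These were the adhesion gene Cdh1 (1.27), the keratin genes Krt8 (1.15) and Krt18 (1.14), and Cldn6 (1.60), a tight junction gene. The 13 summed to 7689 in 129/Sv and 10064 in 129.MOLF-Chr19 at PN1, to 7371 and 8186 in the E13.5 testes and to 6332 and 5469 in the embryos. Of 11 visceral endoderm markers compared, 2 were at least 2-fold higher and 1 lower, with a median of 0.50. The list was not uniform. Of the 11, 8 were above 0, among them Foxa2 (0.96), Sox17 (0.86), Lefty1 (0.75), Eomes (0.50), Apoa1 (0.47) and Ttr (0.16). Afp was at −0.20 and Lhx1 at −0.10. Cer1, an antagonist of Nodal from the same embryonic layer as Otx2, read 89.4, under the floor, in 129/Sv and 1076 in 129.MOLF-Chr19, at least 9.16-fold apart, and it was under the floor on the 4 E13.5 arrays. The homeobox gene Hhex, which lies on the exchanged chromosome 19, was 2.00-fold higher, at the threshold. Gata6, which encodes a GATA factor of endoderm and testis, was at −1.06. The 15 measured summed to 5624 and 6985 at PN1, to 5158 and 5009 in the E13.5 testes and to 18520 and 15517 in the embryos. The PN1 sums hold the 89.4 and 1076 of Cer1. The part of these cell types in the values of the 8 genes was not tested.

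The remaining marker lists were those of resident testis cells, red blood cells and neural cells. Germ cell markers gave 0 of 13 higher and 1 lower, Dazl at −1.97, with a median of 0.01. Of the Sertoli (11 compared), Leydig (6), endothelial (8), macrophage (8), erythroid (3) and neural (9) markers, 0 passed 2-fold, and their medians lay between −0.06 and 0.13. The largest such differences were those of Egfl7 (−0.71, endothelial), Amh (−0.66, Sertoli) and En2 (0.79, neural). The peritubular and interstitial list of 11 had a median of −0.30 and 1 gene past 2-fold, Nr2f2 at −2.58.

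**Figure D4:**
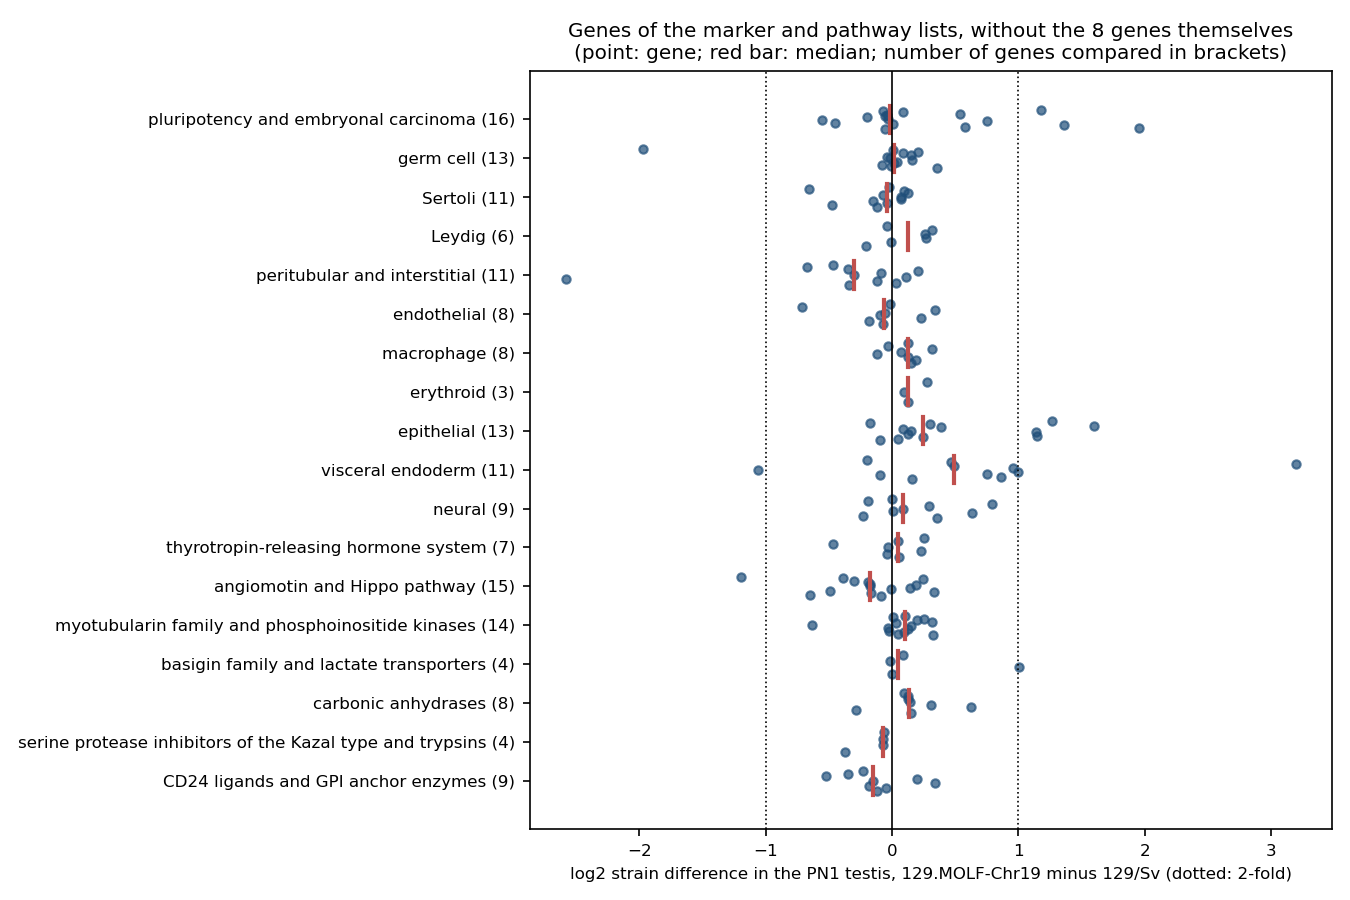
Log2 strain difference in the PN1 testis (129.MOLF-Chr19 minus 129/Sv, 1 array per strain) for the genes of 18 marker and pathway lists without the 8 genes; each point is a gene, the red bar is the list's median, and dotted lines mark 2-fold. The points past 2-fold on the right are those of the pluripotency (3), epithelial (4), visceral endoderm (2) and lactate transport (1) lists.

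The probe sets most like the 8 genes were ranked by Pearson's r over the 6 arrays with the mean centred profile of their brightest probe sets, among 4692 candidates. That profile was −1.23 on the 129/Sv PN1 array and 0.62 on the 129.MOLF-Chr19 PN1 array. The closest was Atf6, a sensor of protein folding stress, with r = 0.917, at 180 in 129/Sv and 390.0 in 129.MOLF-Chr19 at PN1 (log2 1.11). Next came the lactate transporter gene Slc16a1 (r = 0.898), Cpeb2 (0.877), Plaat1 (0.873), the glucose transporter gene Slc2a1 (0.861) and Sdhaf2 (0.855, on chromosome 19). Slc2a1 read 232 and 497 in the PN1 testes, a log2 difference of 1.09. Cxcr4, Chchd6, Klk4 and Rims4 followed with r from 0.831 to 0.840. The 6 points share their arrays with the choice of the genes, so these are descriptions only. Among the 8 themselves, r ran from −0.32 for Trh with Car2 to 0.949 for Trh with Emb.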

How the data were processed

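The deposited table held probe set intensities of 6 Affymetrix arrays on a linear scale; how the authors summarised and scaled them is not given in the sources used here. Of 45101 probe sets, 64 controls were set aside; 34958 had 1 gene symbol in the platform annotation, 932 several and 9211 none. Values below the 25th percentile of their array were raised to it, log2 transformed and centred on the array median. Strain and age differences within 1 tissue or strain are differences of 2 arrays, counted at 2-fold where the brighter array lay above its own median. For 2 comparisons limma 3.58.1 (R 4.3.3) was used (a linear model moderated with an intensity trend, p-values adjusted by Benjamini-Hochberg over all probe sets, threshold 0.05) on the 4 E13.5 arrays, as strain plus tissue, for probe sets above the median in at least 2 of them; all p-values are two-sided. The tissue term of the fit was tested on simulated data with independent noise and added tissue differences only. Its strain term was not tested in this way. No group had a second pool, so the p-values do not measure the spread between pools of one group. Before moderation they rest on 1 residual degree of freedom. It mixes any strain difference that varied between testis and embryo with pool and technical spread.

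Named are all probe sets of the 8 genes, list genes past 2-fold at PN1, and the 10 genes of most similar profile. In a list without a gene past 2-fold, some of the 3 that differed most are named. Trhr, Trhde, Bsg, Nptn, Nanog, Sox2, L1td1, Afp, Lhx1, Ttr, Foxa2, Sox17, Lefty1, Eomes and Apoa1 were named outside these rules, after their values were seen. The members and lists were chosen with earlier results of these data known. Promoter windows were taken from RefSeq (GRCm38.p6). The alternatives were other floors, scalings, filters, variance settings, no block and left-out arrays. Python 3.11.15 was used with numpy 2.4.6, pandas 2.3.3 and matplotlib 3.10.9.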

Additional observations from a re-analysis of the deposited data

Results flagged for a closer look

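In 4 of the 12 probe sets at least 2-fold higher in the 129.MOLF-Chr19 PN1 testis, the strain difference was opposite in sign in another tissue where the signal was above the array median. Otx2 was at −0.25 (log2) in the E13.5 testis, Emb 1415857_at at −0.14 in the E13.5 testis and −0.20 in the embryo, Cd24a 1437502_x_at at −0.10 in the embryo and Car2 at −0.016 in the embryo. With 1 array per group, none of these differences between tissues was tested.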

How the results depend on the processing

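No paired analysis was possible because each group held 1 array without a replicate number. The 12 member probe sets stayed at least 2-fold higher at PN1 on the values as deposited, after quantile normalization, without a floor, with a floor at the 40th percentile and without a filter. With the brighter array required above its 75th percentile, Otx2 and Car2 were not compared and 10 were counted, and 266 probe sets were lower in place of 403. In the E13.5 testis 24 probe sets were higher, 11 as deposited and 10 after quantile normalization, and 16 were lower, 10 with the 40th percentile floor and 6 with the stricter filter. In the embryo 7 in place of 13 were higher as deposited. In the E13.5 strain fit 41 probe sets were higher: 9 as deposited, 24 without a floor, 20 with the 40th percentile floor, 1243 without a filter, 242 above the 75th percentile, 18 without the trend and 0 without the tissue block. The 20 lower became 46 after quantile normalization, 952 without a filter, 69 above the 75th percentile, 12 without the trend and 0 without the block, where 300 probe sets had an unadjusted p under 0.05 in limma. In the tissue fit 5372 were higher in the testis, 3283 without the strain block, 3402 over all 6 arrays and 333 to 1138 over 6 arrays less 1 E13.5 array (431 and 333 without the 129/Sv and 129.MOLF-Chr19 testis, 860 and 1138 without the embryos). The 1758 lower became 3066 after quantile normalization, 3294 without a filter, 1016 above the 75th percentile, 969 without the block, 994 over 6 arrays and 211 to 450 less 1 array (238, 211, 386 and 450 in the same order). Amot 1425907_s_at, not called, passed as lower in the testis on the values as deposited (limma adjusted p 0.0385), after quantile normalization (0.0116), without a filter (0.0427) and above the 75th percentile (0.0485). Of the members, 3 higher became 0 over 6 arrays and 0 in each fit less 1 array, and 4 lower became 1 and 0 to 1, with 0 without the 129.MOLF-Chr19 E13.5 testis. Otx2 turned to −0.12 without the 129/Sv E13.5 testis. The residual over 6 arrays holds, by construction, the PN1 difference that chose the members; the other causes were not tested. Of 539 member values recomputed, 479 kept their sign and their side of the threshold and 24 changed sign, 13 of them untested strain differences within 2-fold. Of the tested and not called, the strain difference turned to −0.058 for Otx2, −0.031 for Cd24a 1437502_x_at and −0.0072 for Mtm1 1434278_at as deposited, and to −0.011 for that of Cd24a after quantile normalization. The tissue difference over 6 arrays turned to 0.13 for Amot 1427584_at and −0.12 for Amot 1454890_at without the 129/Sv testis, to 0.15 for Amot 1427584_at and 0.31 for Emb 1415857_at without the 129/Sv embryo, to −0.25 for Amot 1454890_at without the 129.MOLF-Chr19 embryo, and to 0.26 for Emb 1415857_at without the 129.MOLF-Chr19 testis. A lone array left in a group is assumed to vary like the others. Signals near the floor limit Trh, Spink1 and Otx2.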
